A study of Mus musculus with 6 samples.

Results

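Wnt pathway genes were taken from the whole table by their gene symbols: the Wnt ligands, the frizzled and Lrp receptors, R-spondins and their Lgr receptors, the secreted Dkk, Sfrp and Wif1 inhibitors, the proteins that make or remove active ligand, the cytoplasmic relay and the TCF/LEF factors. The rule found 65 of the 17912 genes in the table. Poly(A) RNA had been sequenced from 3 mouse embryonic stem cell (ESC) clones labelled EXOSC2_KD, which carry a short hairpin RNA against Exosc2 (clones 5, 6 and 7), and from 3 ESC controls labelled WT (controls 1, 2 and 3). Exosc2 encodes a subunit of the RNA exosome, which degrades and trims RNA from its 3′ end. The labels name no parental line, culture medium, hairpin promoter or control hairpin. Since nothing in them ties the libraries to separate cultures, each p-value reflects only how far these samples spread, and that spread may be technical.

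Wnt proteins are lipid-modified secreted ligands. At the cell surface they bind a frizzled receptor together with Lrp5 or Lrp6, which stops a cytoplasmic complex of Axin, Apc and Gsk3 from marking β-catenin for destruction, so that β-catenin reaches the nucleus and acts with TCF/LEF factors. Several of the genes it turns on, among them Axin2, Nkd1, Rnf43, Znrf3, Notum and Lef1, act back on the pathway, most of them as brakes. In mouse ESCs the pathway is known for supporting self-renewal, in part by relieving repression by Tcf7l1, and inhibition of Gsk3 is part of the defined medium for naive cells.

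Values are scaled counts, that is reads per gene divided by a size factor for each library, and each log2 fold change sets knockdown over control, computed on log2(scaled count + 1) and given with its standard error (SE). Recovered reads totalled 24268430 to 26494985 in the clones and 21107761 to 24633836 in the controls. Exosc2 measured 1138, 997 and 981 in clones 5, 6 and 7, against 2457, 2473 and 1954 in controls 1, 2 and 3, and the clones kept 45.3% of the control level (log2 fold change -1.14 ± 0.13, adjusted p = 5.1e-05 in limma). By an exact permutation test (two-sided) p was 0.1, which is as low as 3 libraries against 3 can reach. The ESC label was checked on 15 ESC markers, of which 13 were lower and 2, Pou5f1 and Klf4, higher in the clones. Zfp42, Utf1 and Dppa3 had no read in any clone, and Nanog averaged 0.674 in the clones and 9698 in the controls, so the clones lack several defining markers of the labelled cell type. The summed level of 10 fibroblast or feeder markers was 20858 to 36437 in the clones and 6830 to 8460 in the controls, with 7 of 9 tested higher, 2 lower and none at 0 throughout. Of 10 squamous or surface epithelium markers, all but Trp63 and Krt15 were in the table. These 8 summed to 35321 to 37673 in the clones and 4108 to 5876 in the controls, with 6 higher, 1 lower and Krt6a at 0 in the controls. Ehf (16997 in the clones and 1.69 in the controls) and Perp (13051 in the clones and 1202 in the controls) carried most of the clone sum. Endoderm markers summed to 1212 to 1934 in the clones and 367 to 424 in the controls (1 higher and 1 lower of 3 tested). Dab2 carried that sum (1589 in the clones and 236 in the controls), while Gata4 fell and Gata6, Amn, Sox17 and Foxa2 had lower clone means, with Sox17 at 0 in the clones and Afp at 0 in the controls. Neural markers summed to 7994 to 8540 in the clones and 2125 to 2870 in the controls (3 higher and 3 lower of 6), with Pax6, Neurod1 and Sox1 at 0 in the clones. Blood markers summed to 2569 to 2834 in the clones and 1689 to 2398 in the controls (1 higher and 3 lower of 4 tested). Runx1 carried the clone sum (2551 in the clones and 71.1 in the controls), and Kit, Cd34 and Gata1 fell, with Spi1 at 0 in the clones. Ptprc, which was not tested, averaged 12.4 in the clones and 5.18 in the controls, without overlap. The part of these marker differences in the results on the Wnt genes was not tested. In bulk RNA, fewer cells of a type and less RNA per cell cannot be told apart.

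The Wnt genes moved in both directions. Of the 65, 58 had a mean of at least 10 over the 6 libraries and were tested, and 44 of these (75.9%) passed an adjusted p of 0.05 in limma, against 73.5% of all 15179 genes tested, so the share that changed is near the background. Of the 58, 29 (50%) fell, against 38.3% of all genes, and 15 (25.9%) rose, against 35.2%. A fall of at least 2-fold was called for 26 (44.8%, against 25.7% of all genes) and a rise of at least 2-fold for 12 (20.7%, against 22.4%). The values of clones and controls did not overlap for 44 (75.9%), against 77.3%. The median log2 fold change of the 58 was -0.61, and that of all tested genes was -0.07. A mean of at least 50 leaves 44 Wnt genes with a median of -0.28. However, 15 of the 58 had a clone mean under 10 and 1 a control mean under 10, so that they passed the filter through the other group and had to differ, and all 15 are among the falls of at least 2-fold. The 15 were Axin2, Nkd1, Nkd2, Rnf43, Lef1, Wnt3, Wnt6, Wnt7b, Wnt8a, Rspo1, Fzd10, Sfrp2, Sfrp4, Sfrp5 and Dkkl1. Wnt2 was the 1 with a low control mean. Over the 42 with means of at least 10 in both groups, a selection added after seeing the data, 14 (33.3%) fell and 14 (33.3%) rose, against 32.2% and 37.6% of the 12915 genes selected in the same way. Falls and rises of at least 2-fold then numbered 11 each (26.2%), against 17.6% and 22.5% of those genes, and the median log2 fold change was -0.021, against 0.066. Among these 42, falls thus did not outnumber rises. Their share of falls of at least 2-fold stayed above that of the genes selected in the same way. The 7 genes below the filter were Wnt2b, Wnt3a, Wnt9b, Wnt10a, Wnt16, Rspo4 and Dkk1.

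**Figure D1:**
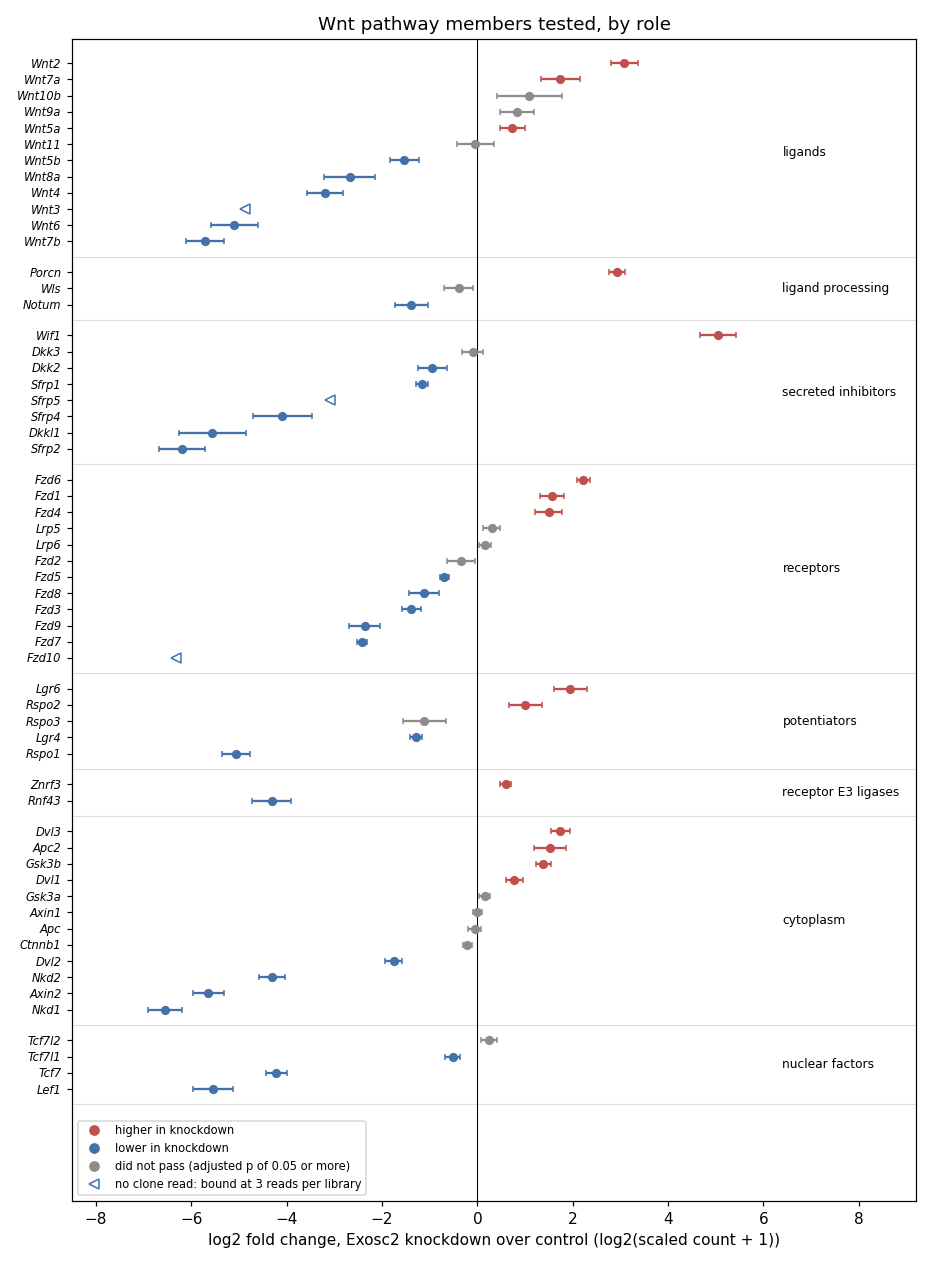
Log2 fold change (knockdown over control, log2(scaled count + 1) scale, x axis) of the 58 tested Wnt genes, grouped by role down the page, with the SE as bars. Open triangles are the bounds of genes with no clone read. Among those tested, 29 lie at called falls and 15 at called rises, with Wif1 farthest to the right and the feedback genes Axin2 and Nkd1 among those farthest to the left.

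Genes that β-catenin and TCF/LEF factors are known to turn on, and that restrain the pathway, were among those that fell. Axin2, a scaffold of the destruction complex and a widely used readout of β-catenin activity (ENSMUSG00000000142.15, GRCm38 chromosome 11, from 108920349 to 108950783), measured 3.98, 3.08 and 8.30 in clones 5, 6 and 7, against 282, 295 and 279 in controls 1, 2 and 3. The clones held 1.79% of the control level (log2 fold change -5.64 ± 0.33, adjusted p = 9.7e-07 in limma), and no clone came near any control. Nkd1, an inhibitor that binds Dishevelled (ENSMUSG00000031661.11, chromosome 8, start 88521354), had 1 read in the 3 clones together and 343 reads in the controls, where it measured 107, 133 and 107. The control-to-clone ratio of its means was 376 (95% counting interval 67.6 to 14871). Its paralog Nkd2 measured 8.95, 7.19 and 7.38 in the clones, against 170, 217 and 141 in the controls (-4.31 ± 0.26). Intervals of this kind cover counting error only, because the reads carry no molecular identifiers and may be copies. Axin2, Nkd1 and Nkd2 had clone means under 10, so they passed the filter through the controls and had to differ.

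Rnf43 and Znrf3, related membrane ubiquitin ligases that remove frizzled receptors from the cell surface, went opposite ways. Rnf43 measured 5.97, 3.08 and 3.69 in clones 5, 6 and 7, against 71.0, 82.1 and 176 in controls 1, 2 and 3 (-4.32 ± 0.40, adjusted p = 1.5e-05 in limma). With a clone mean under 10, Rnf43 too passed the filter through the controls. Znrf3 measured 692, 645 and 674 in the clones, against 462, 431 and 442 in the controls (0.59 ± 0.12, adjusted p = 0.0018 in limma). Both sets of values were apart without overlap, and Znrf3 was the more abundant of the pair per kb of exon in each group (85 in the clones and 56.4 in the controls for Znrf3, 0.648 and 16.7 for Rnf43). Both lie on chromosome 11, where the median gene had a log2 fold change of 0.21, and Znrf3 kept its call with chromosome medians subtracted (0.42). Notum, a secreted enzyme that strips the lipid from Wnt proteins, measured 41.8, 44.2 and 60.9 in the clones, against 142, 191 and 77.3 in the controls (-1.39 ± 0.35, adjusted p = 0.0057 in limma). The call for Notum was lost with quantile normalization (-0.80), and 29.4% of its exon length is shared with Notumos on the opposite strand, whose clone and control means were 2.27 and 7.58.

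**Figure D2:**
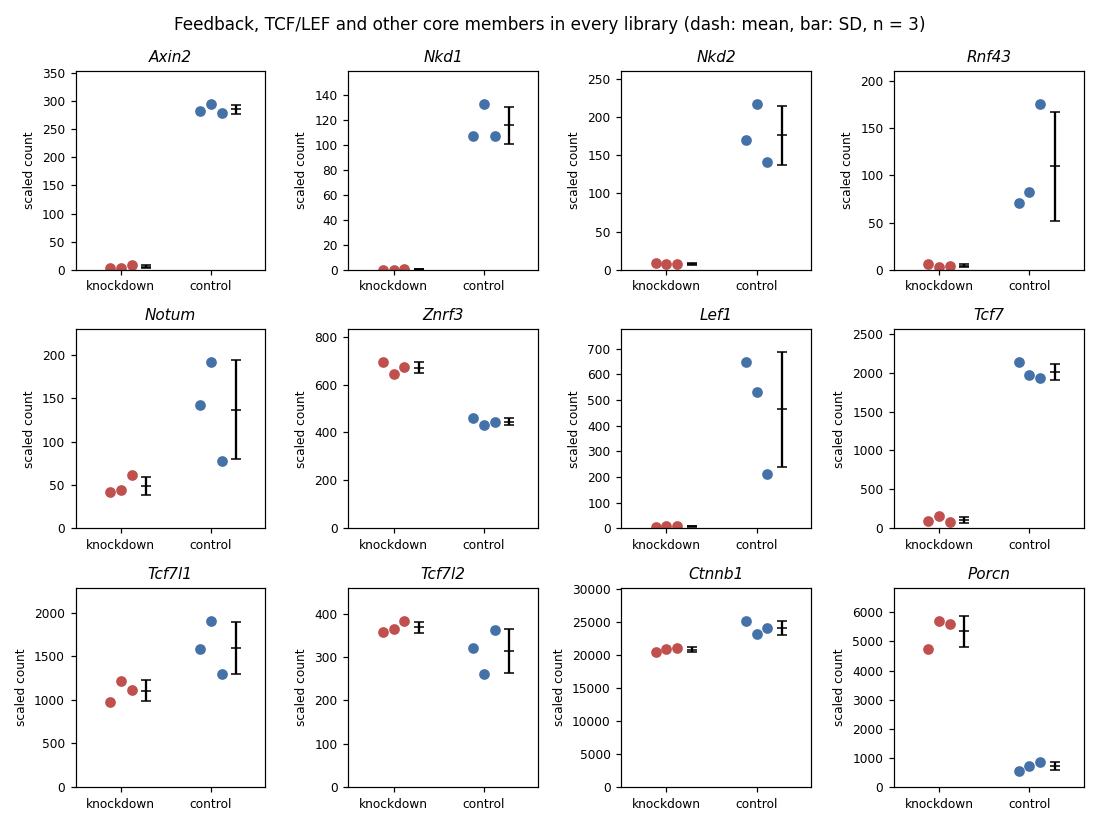
Scaled counts (y axis, from 0) of 12 Wnt pathway genes in each clone and each control, with the mean as a dash and the SD as a bar (n = 3 per group). Axin2, Nkd1, Nkd2, Rnf43, Lef1 and Tcf7 sit near 0 in the clones, Ctnnb1 and Tcf7l2, which did not pass, differ least, and Porcn and Znrf3 are higher in the clones.

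The TCF/LEF factors, which carry β-catenin to DNA, differed between the groups in make-up as well as in summed level. Tcf7 measured 96.5, 154 and 82.1 in clones 5, 6 and 7, against 2132, 1975 and 1933 in controls 1, 2 and 3 (-4.22 ± 0.22, adjusted p = 5.2e-07 in limma). Lef1 measured 5.97, 8.22 and 10.1 in the clones, against 646, 530 and 213 in the controls, a spread of controls wider than for Tcf7 but still far above every clone (-5.55 ± 0.42, adjusted p = 3.9e-06 in limma). The clone mean of Lef1 was under 10, so that it passed the filter through the controls. Tcf7l1, the repressor of the family best known in ESCs, measured 976, 1221 and 1117 in the clones, against 1581, 1907 and 1302 in the controls (-0.52 ± 0.16, adjusted p = 0.016 in limma). Without clone 5 its call was lost (-0.43). Tcf7l2 measured 359, 365 and 384 in the clones, against 322, 261 and 363 in the controls, which overlap, and did not pass (0.24 ± 0.16). Per kb of exon, the 4 factors summed to 367 ± 42.9 in the clones and 1263 ± 111 in the controls (SD, n = 3 each, exact two-sided permutation p = 0.1, the smallest possible). Tcf7l1 made up 76.8% ± 1.84 of that sum in the clones and 32.1% ± 3.94 in the controls, while Tcf7 made up 11.4% ± 2.79 in the clones and 61.0% ± 4.17 in the controls.

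RNA for most of the proteins between receptor and nucleus was present in both groups. Ctnnb1, which encodes β-catenin (ENSMUSG00000006932.16, chromosome 9, start 120929216), had the highest level per kb of all 65 genes in each group, 4015 in the clones and 4650 in the controls. It measured 20413, 20965 and 21166 in clones 5, 6 and 7, against 25208, 23157 and 24061 in controls 1, 2 and 3. Every clone was below every control, yet the difference did not pass in limma (-0.21 ± 0.10, adjusted p = 0.075) and did pass with TMM scaling (-0.24, adjusted p = 0.045), edgeR (-0.24, adjusted p = 0.049) and DESeq2 (-0.23, adjusted p = 0.032). Ctnnb1 shares 14.6% of its exon length with Ulk4 on the opposite strand, whose means were 94.1 in the clones and 216 in the controls.

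Axin1, the paralog of Axin2 that is made regardless of Wnt signal, measured 1823, 1879 and 1934 in the clones, against 1893, 1974 and 1773 in the controls. The clone and control means of 1879 ± 55.1 and 1880 ± 101 differed by less than the spread between replicates (log2 fold change 0.00 ± 0.10). Apc, which encodes the other scaffold, measured 3352, 2741 and 2723 in the clones, against 3418, 2532 and 3263 in the controls, with overlap (-0.06 ± 0.14). Its paralog Apc2 was far lower and rose, at 84.6, 149 and 114 in the clones, against 27.5, 35.6 and 58.3 in the controls (1.53 ± 0.33, adjusted p = 0.0029 in limma). Of the paired kinases, Gsk3b measured 3982, 4085 and 3834 in the clones, against 1574, 1187 and 1875 in the controls (1.38 ± 0.16, adjusted p = 5.6e-05 in limma). Gsk3a measured 2305, 2439 and 2628 in the clones, against 2097, 2491 and 2047 in the controls, and did not pass (0.16 ± 0.11). It passed with chromosome medians subtracted (0.34) and without control 2 (0.24). Per kb of exon the pair summed to 1251 ± 48.5 in the clones and 920 ± 52.2 in the controls.

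The 3 Dishevelled genes, whose products pass the signal on from frizzled, did not move together. Dvl2 measured 604, 729 and 774 in the clones, against 1984, 3059 and 2156 in the controls (-1.75 ± 0.18, adjusted p = 2.5e-05 in limma). Dvl3 measured 728, 961 and 928 in the clones, against 194, 293 and 304 in the controls (1.74 ± 0.20, adjusted p = 6.4e-05 in limma). Dvl1 measured 1216, 1551 and 1540 in the clones, against 664, 1002 and 864 in the controls (0.78 ± 0.17, adjusted p = 0.0032 in limma). None of the 3 overlapped between groups, and all kept their direction and call under every alternative run. Summed per kb, Dishevelled RNA was 535 ± 71.2 in the clones and 591 ± 129 in the controls (exact two-sided permutation p = 0.6), and these sums overlap. Dvl2 made up 20.9% ± 0.673 of the sum in the clones and 64.4% ± 3.05 in the controls. Dvl2 shares 18.3% of its exon length with Acadvl on the opposite strand, which was higher in the clones (means 2736 and 795), and the labels do not state whether counting used the strand.

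Of the 10 frizzled receptor genes, 6 fell (60%, against 38.3% of all genes), 3 rose (30%, against 35.2%) and Fzd2 did not pass. Among the 6, Fzd10 had a clone mean under 10, so it passed the filter through the controls and had to differ. Over the 11 receptor genes with means of at least 10 in both groups, Lrp5 and Lrp6 included, 5 fell (45.5%) and 3 rose (27.3%). Of all genes selected in the same way, 32.2% fell and 37.6% rose. Fzd7, a receptor known as the leading frizzled of undifferentiated ESCs (ENSMUSG00000041075.8, chromosome 1, start 59482424), measured 1551, 1733 and 1435 in clones 5, 6 and 7, against 8705, 8623 and 7948 in controls 1, 2 and 3 (-2.42 ± 0.11, adjusted p = 1.9e-07 in limma). The clones had lower levels across chromosome 1 (median log2 fold change -0.60 over 930 genes), and with that median subtracted Fzd7 stood at -1.84. Fzd5 lies on the same chromosome and measured 1857, 2029 and 1898 in the clones, against 3219, 2994 and 3153 in the controls (-0.70 ± 0.09, adjusted p = 0.00016 in limma). Its call was lost once the chromosome median was subtracted (-0.11). Fzd6 rose, at 1333, 1352 and 1328 in the clones, against 324, 244 and 297 in the controls (2.22 ± 0.14, adjusted p = 1.4e-06 in limma).

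Fzd10 was at 219, 245 and 246 in the controls and had no read in any clone, at least 80.4-fold lower against a floor of 3 reads per library. Fzd9 and Fzd3 fell with log2 fold changes of -2.37 ± 0.33 and -1.39 ± 0.20, and Fzd3 stood at -0.81 with the median of chromosome 14 (-0.57) subtracted. Fzd8 fell by 1.12 (SE 0.31), a call that was lost with quantile normalization (-0.24). Fzd1 and Fzd4 rose. Fzd1 measured 252, 300 and 240 in the clones, against 66.3, 85.3 and 122 in the controls (1.56 ± 0.25), and Fzd4 measured 199, 177 and 152 in the clones, against 66.3, 41.0 and 85.4 in the controls (1.49 ± 0.29). Fzd2 overlapped between the groups at 143, 238 and 211 in the clones, against 238, 349 and 178 in the controls (-0.34 ± 0.29). The co-receptors Lrp5 and Lrp6 overlapped too. Lrp5 measured 2171, 2725 and 2694 in the clones, against 1617, 2612 and 2019 in the controls (0.30 ± 0.18), and passed only without control 2 (0.48). Lrp6 measured 2304, 2244 and 2049 in the clones, against 2080, 1630 and 2241 in the controls (0.16 ± 0.14).

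Summed per kb of exon, the 10 frizzled genes came to 1067 ± 64.9 in the clones and 2620 ± 94.8 in the controls (SD, n = 3 each, exact two-sided permutation p = 0.1). Fzd7 made up 32.5% ± 1.36 of that sum in the clones and 70.9% ± 0.973 in the controls. Fzd6 made up 26.1% ± 1.29 in the clones and 2.29% ± 0.341 in the controls, next to Fzd5 with 26.1% ± 0.599 in the clones and 17.2% ± 0.987 in the controls. In the clones Fzd5 and Fzd6 did not differ in level beyond their spread (279 and 278 per kb).

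**Figure D3:**
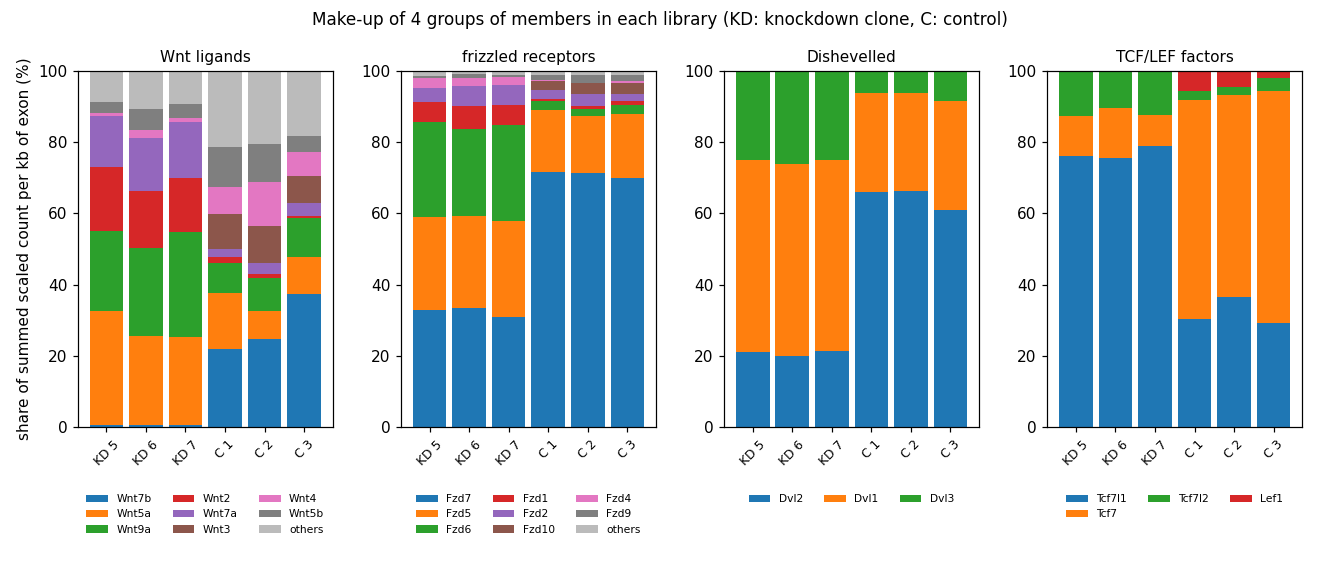
Share (%) of each gene in the summed scaled count per kb of exon of the Wnt ligands, frizzled receptors, Dishevelled genes and TCF/LEF factors, with 1 bar per clone (KD) and per control (C). Clones resemble each other in all 4 panels, with Fzd7 at 32.5% of frizzled RNA in the clones and 70.9% in the controls.

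Of the 12 tested ligand genes, 6 fell (50%, against 38.3% of all genes) and 3 rose (25%, against 35.2%). With 3 that did not pass, 75% were called, near the 73.5% of all genes. Among the 7 with means of at least 10 in both groups, 2 fell and 2 rose (28.6% each). Of all genes selected in the same way, 32.2% fell and 37.6% rose. Wnt3, Wnt6, Wnt7b and Wnt8a, all among the falls, had clone means under 10 and passed the filter through the controls. Wnt7b measured 6.96, 6.16 and 7.38 in clones 5, 6 and 7, against 243, 368 and 774 in controls 1, 2 and 3, where it was the highest Wnt per kb (-5.72 ± 0.40, adjusted p = 2.4e-06 in limma). Wnt3, a ligand needed to form the primitive streak, had no clone read and 67.2, 97.2 and 96.4 in the controls, at least 29.5-fold lower. Wnt6 had 2 reads in the clones together and 35.0, 48.6 and 67.3 in the controls, so that the ratio of means was 73.5 (95% counting interval 20.3 to 607). Wnt4 measured 6.96, 15.4 and 12.9 in the clones, against 72.9, 156 and 120 in the controls (-3.19 ± 0.38). Wnt8a and Wnt5b fell with log2 fold changes of -2.68 ± 0.54 and -1.53 ± 0.31, and both calls were lost with quantile normalization (-0.61 and -0.62). Without clone 6, Wnt8a stood at -3.30.

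Wnt2, which acts in lung and placental development, rose the most of the ligands, with 75.6, 61.6 and 90.4 in the clones, against 9.47, 7.56 and 7.03 in the controls (9.46-fold by means, log2 fold change 3.08 ± 0.28, adjusted p = 1.1e-05 in limma). Its control mean was under 10, so that it passed the filter through the clones and had to differ. Wnt7a, the closest paralog of Wnt7b, measured 85.6, 81.2 and 133 in the clones, against 16.1, 29.2 and 48.2 in the controls (1.74 ± 0.40, adjusted p = 0.0037 in limma). The paralogs thus stood in opposite order in the groups. Wnt5a, the main ligand of β-catenin-independent signalling, measured 472, 333 and 518 in the clones, against 277, 185 and 345 in the controls (0.73 ± 0.26, adjusted p = 0.030 in limma). Its values overlapped and its call was lost without clone 5 (0.67), clone 7 (0.61), control 1 (0.78) or control 2 (0.49), and with quantile normalization (0.65) and eBayes without trend, whereas it was 1.32 with the median of chromosome 14 subtracted.

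Wnt9a measured 142, 140 and 260 in the clones, against 63.4, 94.0 and 151 in the controls, and did not pass (0.83 ± 0.36, adjusted p = 0.063 in limma), although it did without control 3 (1.15), with DESeq2 (0.80) and with quantile normalization (1.19). Wnt10b measured 21.9, 17.5 and 32.3 in the clones, against 2.84, 10.8 and 31.1 in the controls (1.09 ± 0.68), and passed without control 3 (1.84) and with quantile normalization (2.59). Wnt11 measured 27.9, 32.9 and 47.0 in the clones, against 23.7, 31.3 and 63.3 in the controls (-0.04 ± 0.39). In all 3 the highest control was control 3. Below the filter, Wnt3a had 2 reads in the clones and 8.52, 20.5 and 13.1 in the controls, Wnt10a had clone and control means of 2.24 ± 1.35 and 12.4 ± 0.468, and Wnt16, Wnt9b and Wnt2b had control means of 8.67, 4.43 and 6.96. The 17 ligand genes summed to 209 ± 50.6 per kb in the clones and 317 ± 98.6 in the controls (exact two-sided permutation p = 0.2), which overlap. Wnt5a, Wnt9a, Wnt2 and Wnt7a made up 27.2%, 25.5%, 16.3% and 15% of the sum in the clones, against 11.3%, 9.49%, 1.23% and 2.96% in the controls. Wnt7b made up 0.685% ± 0.103 in the clones and 28.1% ± 8.25 in the controls.

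Porcn, the acyltransferase that puts the lipid on Wnt proteins and without which they are not active, rose. It measured 4729, 5706 and 5595 in clones 5, 6 and 7, against 554, 724 and 847 in controls 1, 2 and 3 (7.55-fold by means, log2 fold change 2.93 ± 0.16, adjusted p = 7.1e-07 in limma). With 1781 per kb it was the most abundant of the 65 genes after Ctnnb1 in the clones, against 236 per kb in the controls. Wls, which carries the lipid-modified ligand to the surface, measured 668, 368 and 716 in the clones, against 686, 540 and 1079 in the controls, and did not pass (-0.39 ± 0.31).

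**Figure D4:**
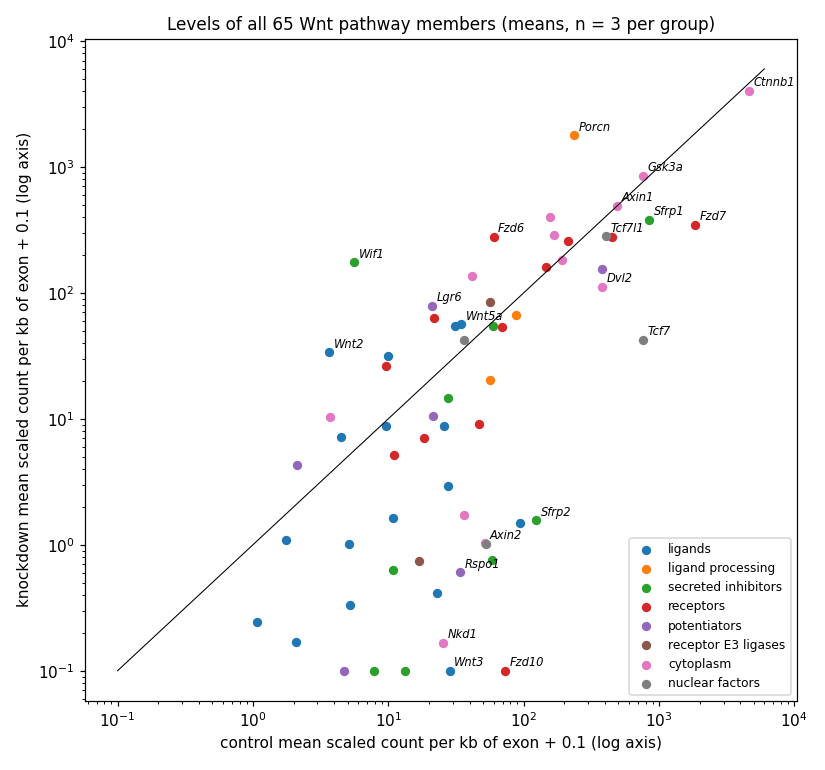
Mean scaled count per kb of exon, plus 0.1, of all 65 Wnt genes in the clones (y axis) against the controls (x axis), both on log axes, coloured by role (n = 3 per group). Ctnnb1, Axin1 and Gsk3a lie near the line of equal level, Porcn, Wif1, Wnt2 and Fzd6 above it, and Axin2, Tcf7, Sfrp2 and Fzd10 below it.

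Most of the genes grouped as secreted inhibitors encode proteins that bind the ligand or Lrp5 and Lrp6. Of the 8 tested, 6 fell (75%, against 38.3% of all genes) and Wif1 alone rose (12.5%, against 35.2%). Of the 6, Sfrp2, Sfrp4, Sfrp5 and Dkkl1 had clone means under 10, so they passed the filter through the controls and had to differ. Among the 4 with means of at least 10 in both groups, 2 fell (50%) and Wif1 rose (25%). Of all genes selected in the same way, 32.2% fell and 37.6% rose. Wif1, which encodes a Wnt-binding inhibitor (ENSMUSG00000020218.11, chromosome 10, start 121033960), measured 421, 462 and 393 in the clones, against 13.3, 20.5 and 6.03 in the controls (32.1-fold by means, log2 fold change 5.04 ± 0.38, adjusted p = 4.1e-06 in limma). Sfrp1, a frizzled-related decoy and the most abundant inhibitor in each group, measured 1599, 1974 and 1435 in the clones, against 3805, 3596 and 3653 in the controls (-1.15 ± 0.13), or -0.68 with the median of chromosome 8 (-0.49) subtracted. Its relative Sfrp2 measured 1.99, 1.03 and 6.46 in the clones, against 283, 330 and 187 in the controls (-6.19 ± 0.48, adjusted p = 4.6e-06 in limma). Sfrp4 fell too (-4.09 ± 0.61, and -3.41 without clone 6). Sfrp5 had no clone read and 23.7, 28.1 and 23.1 in the controls, at least 8.47-fold lower.

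Among the Dickkopf genes, Dkk1 and Dkk2 encode proteins that act on Lrp5 and Lrp6. Dkk2 measured 60.7, 34.9 and 64.6 in the clones, against 127, 78.8 and 100 in the controls (-0.94 ± 0.31, adjusted p = 0.020 in limma). That call was lost without clone 6 (-0.67) or control 1 (-0.78), and with quantile normalization (-0.31). Dkk3 overlapped between the groups (197, 158 and 193 in the clones, against 182, 156 and 263 in the controls). Dkk1, itself a known β-catenin target, was below the filter with no clone read and 5.68, 6.48 and 44.2 in the controls. Dkkl1, a distant relative of the family, had 3 reads in the clones, all in clone 6, and 39.8, 57.2 and 180 in the controls. The ratio of its means was 89.8 (95% counting interval 30.7 to 435), and its log2 fold change was -5.56, -6.24 without clone 6 and -4.93 without control 3. Summed per kb, the 9 inhibitor genes came to 628 ± 66.9 in the clones and 1149 ± 31.5 in the controls, of which Wif1 made up 27.9% ± 0.672 in the clones and 0.481% ± 0.273 in the controls.

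R-spondins and the Lgr receptors they bind strengthen Wnt signals by drawing Rnf43 and Znrf3 away from frizzled. Lgr4, the most abundant of them per kb in each group, measured 896, 1022 and 836 in the clones, against 2571, 2044 and 2130 in the controls (-1.29 ± 0.13, adjusted p = 2.5e-05 in limma). Lgr6 moved the other way, with 560, 354 and 712 in the clones, against 117, 94.0 and 218 in the controls (1.95 ± 0.35, adjusted p = 0.00089 in limma), and stood at 2.54 with the median of chromosome 1 subtracted. Lgr6 also varied most between clones of the 30 Wnt genes with means of at least 50 in both groups, its highest clone being 2.01 times its lowest, where the median of these genes was 1.25. Between controls Lgr6 spread more, at 2.32 times, where the median was 1.49. Rspo1 had 1 read in each clone and 69.1, 73.4 and 54.2 in the controls, so that the ratio of means was 66.8 (95% counting interval 22.9 to 324). It passed the filter through the controls. Rspo2 was low in both groups and rose, at 19.9, 16.4 and 28.6 in the clones, against 14.2, 8.64 and 8.04 in the controls (1.01 ± 0.35, adjusted p = 0.026 in limma). The Rspo2 call was lost without clone 5 (1.05), clone 7 (0.80), control 2 (0.91) or control 3 (0.87), with DESeq2 (1.06) and with chromosome medians subtracted (0.75), whereas quantile normalization gave 2.82 and kept it. Rspo3 measured 28.8, 15.4 and 51.7 in the clones, against 63.4, 43.2 and 91.4 in the controls and did not pass (-1.12 ± 0.45, adjusted p = 0.0502 in limma). It passed without clone 7 (-1.53) or control 2 (-1.39), with a pseudocount of 5 (-1.01), TMM scaling (-1.14) or DESeq2 (-1.06), and with chromosome medians subtracted (-1.30). Rspo4, below the filter, had no clone read and 5.68, 10.8 and 16.1 in the controls.

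Promoter sequence was set beside these levels, since Tcf7l1, Tcf7 and Lef1 all bind the same short core. RefSeq promoters on GRCm38.p6 were available for 45 of the 65 genes. The 250 bases before each start were searched on both strands for 4 spellings of that core. The first search used CTTTGAA as well as CTTTGAT, and after its result was seen the looser CTTTGTA was added along with CTTTGTT. At least 1 spelling stood before a start of 8 of the 45 Wnt genes (17.8%) and of 12.8% of all 12101 genes of the table that had a promoter. By call it was 3 of 22 that fell, 1 of 10 that rose and 3 of 7 that did not pass, with 1 more among the genes not tested. The promoters below are shown because they belong to the leading feedback gene, the leading receptor, a TCF/LEF gene and the inhibitor that rose, and capitals mark a core. Fzd7 holds CTTTGTT on the opposite strand, beginning 130 bases before its start, and a start inside Lef1 holds CTTTGTA on the opposite strand at 147 bases. Those of Axin2 and Wif1 hold no such letters in this window. Neither do those of Tcf7 and Nkd1, which are not shown. The 4 shown read on the + strand, from chr11:108920099-108920348 (Axin2), chr1:59481897-59482146 (Fzd7), chr3:131156044-131156293 (Lef1) and chr10:121033754-121034003 (Wif1).
Axin2: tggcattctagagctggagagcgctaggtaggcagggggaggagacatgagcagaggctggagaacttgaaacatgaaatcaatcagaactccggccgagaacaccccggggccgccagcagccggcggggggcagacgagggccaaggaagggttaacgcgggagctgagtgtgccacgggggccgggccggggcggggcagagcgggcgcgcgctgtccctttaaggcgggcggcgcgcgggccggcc
Fzd7: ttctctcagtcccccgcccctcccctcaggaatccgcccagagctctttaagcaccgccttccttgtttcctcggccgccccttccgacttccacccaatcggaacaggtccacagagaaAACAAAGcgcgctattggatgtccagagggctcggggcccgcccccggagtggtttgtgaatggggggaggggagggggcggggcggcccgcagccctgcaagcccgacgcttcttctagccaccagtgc
Lef1: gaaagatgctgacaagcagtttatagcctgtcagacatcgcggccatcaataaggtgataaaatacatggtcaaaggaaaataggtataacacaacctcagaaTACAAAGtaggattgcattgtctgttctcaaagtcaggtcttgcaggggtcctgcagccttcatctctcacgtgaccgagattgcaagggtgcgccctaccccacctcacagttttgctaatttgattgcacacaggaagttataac
Wif1: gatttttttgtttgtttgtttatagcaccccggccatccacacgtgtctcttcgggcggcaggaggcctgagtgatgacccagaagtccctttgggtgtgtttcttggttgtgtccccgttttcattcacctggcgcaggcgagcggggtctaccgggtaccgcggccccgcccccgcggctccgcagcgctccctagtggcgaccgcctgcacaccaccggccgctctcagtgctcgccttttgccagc

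Other genes of the pathway were taken from lists chosen, like the 65, with earlier results of these data known. Of 31 tested genes known as β-catenin targets in some tissue, 15 fell, 10 rose and 6 did not pass (80.6% called, against 73.5% of all genes, median log2 fold change -0.44). These falls are 48.4% of the list, against 38.3% of all genes, and the rises 32.3%, against 35.2%. Only 6 of the 15 that fell had means of at least 10 in both groups, whereas all 10 that rose did. Among targets with both means that high, rises thus outnumbered falls. Rises (37.6%) also outnumbered falls (32.2%) among all 12915 genes selected in the same way. The leading members by p were Esrrb, a naive pluripotency factor that is also among the 15 ESC markers, at 1.99, 2.05 and 2.77 in clones 5, 6 and 7, against 15711, 16830 and 17098 in controls 1, 2 and 3, then T, a mesoderm factor with no clone read and 223, 226 and 213 in the controls, and Tnfrsf19, a receptor with 0.995, 1.03 and 0.923 in the clones, against 308, 283 and 284 in the controls. Sp5, a transcription factor known as a direct target in many tissues and named here after its values were seen, had no clone read and 21.8, 44.3 and 49.2 in the controls. Esrrb, T, Tnfrsf19 and Sp5 had clone means under 10, so they passed the filter through the controls and had to differ. Targets also rose. Myc, next by p after Tnfrsf19, measured 10904, 12619 and 12054 in the clones, against 327, 299 and 168 in the controls. Cd44 measured 15904, 16372 and 14998 in the clones, against 587, 356 and 985 in the controls. The cyclin gene Ccnd1 measured 15309, 15578 and 16250 in the clones, against 4693, 4480 and 2881 in the controls. Myc, Cd44 and Ccnd1 were also named after their values were seen.

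The remaining lists moved in both directions, with shares called on either side of the 73.5% of all genes. Among 28 cytoplasmic regulators 11 rose and 8 fell (67.9% called, median 0.02), a balance that turned to 7 higher and 12 lower with quantile normalization. Their leading members were the phosphatase subunit gene Ppp2r5e, with a log2 fold change of 2.42 ± 0.11, the Dishevelled-binding Dact1 with -4.82 ± 0.27 and Cxxc5, which encodes another Dishevelled-binding protein, with -2.07 ± 0.15. Among 26 nuclear co-factors 10 rose and 10 fell (76.9% called, median -0.01). Tle3, a Groucho co-repressor of TCF factors, measured 428, 417 and 386 in the clones, against 3894, 4631 and 4781 in the controls (-3.43 ± 0.12), the DNA repair enzyme gene Parp1 stood at -2.28 ± 0.10 and the kinase gene Hipk2 at 2.70 ± 0.12. Of 32 extracellular modulators, 15 rose and 10 fell (78.1% called, median 0.22). Kremen1, a receptor for Dickkopf proteins, measured 7730, 8777 and 8785 in the clones, against 698, 767 and 1070 in the controls (3.34 ± 0.16), Shisa3 stood at 5.0 ± 0.20, and Tspan12, a partner of Fzd4, at 4.04 ± 0.20. For β-catenin-independent Wnt signalling, 16 of 38 genes rose and 14 fell (78.9% called, median 0.15). The calcium-pathway genes Nfatc2 and Plcb1 stood at 3.31 ± 0.13 and 5.15 ± 0.22, and the planar polarity gene Vangl2 measured 129, 155 and 126 in the clones, against 1210, 1210 and 1138 in the controls (-3.11 ± 0.14).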

How the data were processed

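The labels' protocols describe poly(A) selection from 500 ng of total RNA and Illumina TruSeq Stranded mRNA libraries amplified for 8 cycles. Among the tools named in the submitters' processing notes are cutadapt (1.6), STAR (2.5.0a), HTSeq (0.5.3) and DESeq (1.22.1), with mm10 as the build. The authors' deposited table holds a signal per gene and sample, which is a read count divided by a DESeq size factor. All values of a column (100%) were whole multiples of its step within 0.001 read, so whole reads could be recovered, and every gene had at least 15 reads over the 6 samples. Of 17912 gene identifiers, 17860 were found in GENCODE M21 (GRCm38, as mm10), from which positions, exon lengths (union of exons) and overlapping genes were taken. Strand use in counting is not known from the labels.

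Differences were tested with limma 3.58.1, as moderated fits with a mean-variance trend to log2(scaled count + 1). Genes averaging at least 10 were fitted together, and p-values were adjusted by Benjamini-Hochberg over all of them, with 0.05 as the threshold. On this scale the fold changes of low genes come out too small. Where the clones had no read, a fold is a bound against 3 reads per library, and with 1 to 3 reads it is the ratio of means with an exact 95% Poisson interval. The fit was repeated with other pseudocounts (0.5 and 5), without the filter or with a minimum mean of 50, after TMM scaling or quantile normalization, without the eBayes trend, and with each sample left out. Recovered reads were also tested with edgeR 4.0.16, which called 5190 genes higher and 5960 lower, and DESeq2 1.42.0, which called 5222 higher and 5910 lower. In chromosome centring, the deviations of a chromosome's genes from their control means were taken in every library, and their median was subtracted.

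The 65 genes and the lists were chosen with earlier results of these data known. All 65 are described. From each further list the 3 genes with the smallest p are named, and others are said to be chosen later. Software was R 4.3.3 and Python 3.11.15 with pandas 2.3.3, numpy 2.4.6, scipy 1.17.1 and matplotlib 3.10.9.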

Additional observations from a re-analysis of the deposited data

How the results depend on the processing

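Of the 44 calls, 35 kept their direction and their side of the threshold under each of 16 alternative settings that could test them, and the calls lost are named beside their genes above. The count of Wnt genes that fell ranged from 28 to 30 and of those that rose from 13 to 16 when 1 library was left out. The median log2 fold change of the Wnt genes was -1.12 with no filter on low values, -0.28 with a mean of at least 50 and -0.29 with quantile normalization, which also left 7 cytoplasmic regulators higher and 12 lower. Over genes with both group means at least 10, chosen after seeing the data, the median was -0.021. Of the Wnt genes 14 then fell and 14 rose, and of the β-catenin targets 6 fell and 10 rose. Of all genes selected in the same way, 32.2% fell and 37.6% rose. Genes that did not pass changed sign in places: with TMM, edgeR and DESeq2 Axin1 was -0.026, -0.027 and -0.015. Quantile normalization gave -0.20 for Axin1, -0.030 for Gsk3a, 0.95 for Wnt11, -0.028 for Lrp6 and 0.020 for Dkk3. Chromosome centring gave 0.089 for Apc, -0.072 for Axin1, 0.14 for Wnt11, -0.15 for Tcf7l2, -0.088 for Lrp5, -0.23 for Lrp6 and 0.084 for Dkk3. Leaving out 1 library at a time gave -0.19 to 0.025 for Apc, -0.042 to 0.036 for Axin1, -0.34 to 0.35 for Wnt11 and -0.27 to 0.11 for Dkk3. The cause was not tested. Quantile normalization moved 26 and a pseudocount of 5 moved 12 of the called log2 fold changes by over 1.5-fold. No paired analysis was possible because controls are numbered 1 to 3 and clones 5 to 7. Fold changes of genes with few clone reads are limited by depth.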

Other observations

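Pairs of Wnt genes stand side by side on their chromosomes, and in 1 pair the means differed in opposite directions. Wnt3a and Wnt9a lie 16175 bases apart on chromosome 11, and Wnt3a averaged 0.639 in the clones and 14.0 in the controls, while Wnt9a averaged 181 in the clones and 103 in the controls. The values of Wnt9a overlapped between the groups, and its difference did not pass. Wnt6 and Wnt10a lie 6193 bases apart on chromosome 1, and both were lower in the clones without overlap (0.685 and 50.3 for Wnt6, 2.24 and 12.4 for Wnt10a, clones before controls in each). Wnt9b and Wnt3 lie 24328 bases apart on chromosome 11, and Wnt3 had no clone read against a control mean of 87.0, while Wnt9b averaged 0.650 in the clones and 4.43 in the controls. Wnt3a, Wnt9b and Wnt10a were below the filter, so these pairs were not tested.

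The clones spread less among themselves than the controls did, as a median over genes. Over the 30 Wnt genes with means of at least 50 in both groups, the highest library was a median of 1.25 times the lowest among the clones and 1.49 times among the controls, where the widest was Wnt9a at 2.37 times. Clone 6 was the highest clone for 14 of these genes, clone 7 for 10 and clone 5 for 6.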
